A study of Homo sapiens with 8 samples.

Results

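The genes of the insulin-like growth factor (IGF) axis were followed in Alexander1 cells, an established epithelial line from a human hepatocellular carcinoma. The members were taken by gene symbol, as genes of 1 pathway, with earlier results of these data known. They are the ligand IGF2, the receptors IGF1R, IGF2R and INSR, the binding proteins IGFBP1, IGFBP2, IGFBP3 and IGFBP4, and the receptor substrates IRS1 and IRS2, which makes 10 genes of 58206 in the table. Each symbol was found, 8 of the 10 passed the expression filter and were tested, and IGF2 and IGFBP2 were too low to pass. RNA was sequenced from 4 parental libraries, labelled wt (Axin1 -), and 4 libraries labelled Axin1+. All 8 share the line's own Axin1, which per the labels lacks the region that binds the kinase GSK3, and all were grown in medium with serum. The derivative received Axin1 from a plasmid by retroviral transfer, followed by hygromycin B selection of clones, and the number of clones behind the 4 libraries is not given in the sources used here. Effects of Axin1 and of clone, virus or selection therefore cannot be told apart in this design. No label says that replicates came from separate cultures, so p-values measure the spread between these libraries, which may be technical.

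IGF1 and IGF2 are secreted growth factors that act mainly through the receptor tyrosine kinase IGF1R and, for IGF2, through a form of the insulin receptor INSR. IGF2R, the cation-independent mannose 6-phosphate receptor, has no kinase and carries IGF2 to the lysosome, while the IGFBPs bind the ligands outside the cell and control their access to receptors. Active receptors phosphorylate IRS1 and IRS2, which recruit PI3K and, through AKT, keep FOXO transcription factors out of the nucleus. The liver is a main source of circulating IGF1 and of several IGFBPs, and IGFBP1 is a liver gene that insulin represses.

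Library totals ran from 11232951 to 15263761 counts in the parental group and from 12372436 to 26400782 in the libraries labelled Axin1+. A count of 3 was worth 0.108 to 0.267 CPM (counts per scaled library total). AXIN1 itself was at 55.3, 52.8, 47.4 and 54.2 CPM in parental replicates 1 to 4 and at 47.6, 48.0, 48.2 and 37.7 CPM in Axin1+ replicates 1 to 4. Its log2 difference was -0.21 (SE 0.12, edgeR adjusted p = 0.267), so AXIN1 mRNA was not shown to be higher in the libraries labelled Axin1+. Whether reads of the transferred copy were counted in this row was not tested. In a principal component analysis of log2 CPM, Axin1+ replicate 1 lay at 22.2 on the first axis, against 48.7 to 56.8 for the other Axin1+ libraries and -46.7 to -42.6 for the parental ones. Parental replicate 1 lay at 61.5 on the second axis, against -30.3 to 25.0 for the other libraries. The 9 hepatocyte markers were all tested, and their summed level was 23952 to 28061 CPM in parental and 17120 to 20693 CPM in Axin1+ libraries. Of these 9 markers SERPINA1 fell, from a mean of 16130 to 10358 CPM, which is the larger part of the summed difference. TTR rose from 3.63 to 12.6 CPM, and 7 did not pass the test, among them ALB with means of 152 and 435 CPM. ALB was at 46.7 to 208 CPM in the parental libraries. It was at 13.8 CPM in Axin1+ replicate 1 and at 445, 681 and 598 CPM in Axin1+ replicates 2 to 4. The median log2 difference of the list was -0.10. Leukocyte markers summed to at most 0.712 CPM and fibroblast markers to at most 4.56 CPM in any library. Among endothelial markers PECAM1 rose from a mean of 5.18 to 48.2 CPM with CDH5 and VWF near 0, and the part of other cells in the results below was not tested.

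Of the 8 members tested, IGFBP4 rose, IGF1R fell, and 6 did not pass the test (edgeR quasi-likelihood test, Benjamini-Hochberg adjusted p under 0.05 over 14289 genes). Over all genes tested, 19.2% passed, 10.4% as higher and 8.77% as lower in the libraries labelled Axin1+, that is 1485 higher and 1253 lower, or 1724 higher and 868 lower with scaling by plain library totals. Among the tested members, the same 2 were those whose 4 values in one group did not overlap the 4 in the other, against 23.9% of all genes tested. The shares among the members are thus close to those of all genes. The median log2 difference was -0.33 over the 8 tested members and 0.00 over all genes tested. In bulk RNA, fewer cells with a transcript and less RNA per cell cannot be told apart.

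**Figure D1:**
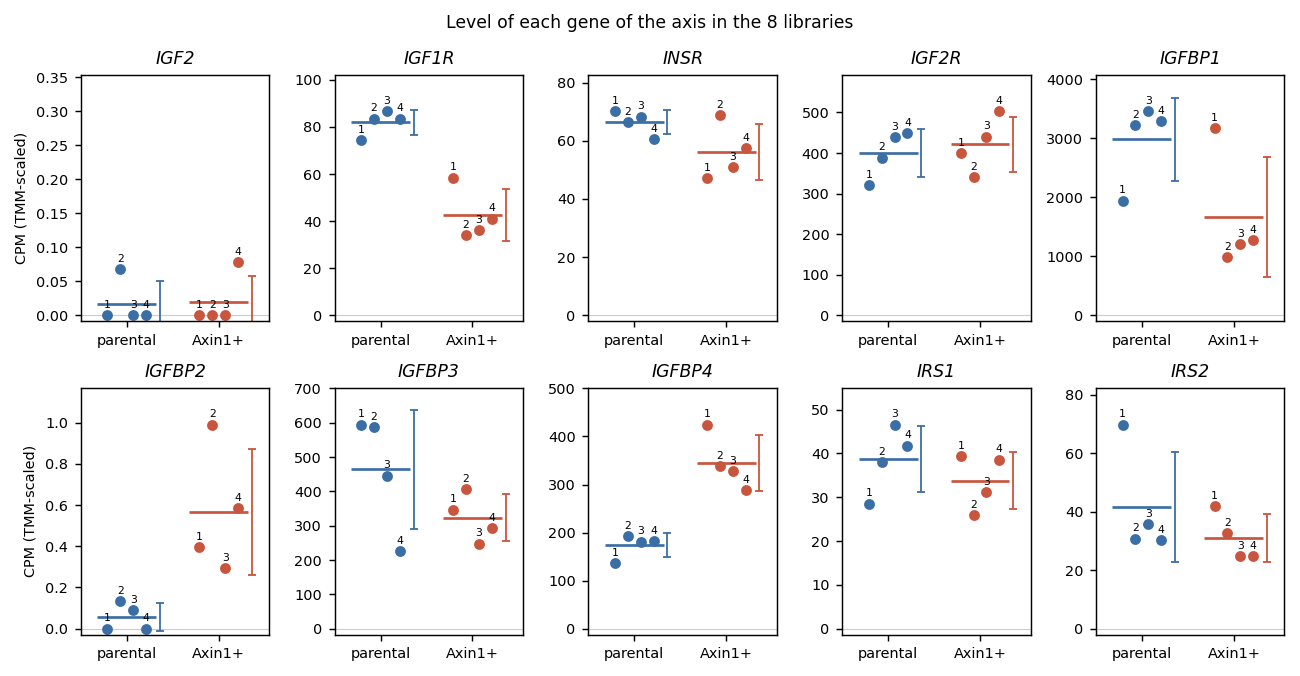
CPM of each member (y axis, one panel a gene, each with its own scale from 0) in the 4 parental and 4 Axin1+ libraries; points are libraries and bars the mean and SD. Among the tested members the groups are separate for IGF1R (74.4 to 86.7 against 34.2 to 58.5 CPM) and IGFBP4 (137 to 193 against 288 to 425 CPM). They are also separate for IGFBP2 (0 to 0.135 against 0.296 to 0.991 CPM), which was too low to be tested. For IGFBP1, 1 Axin1+ library at 3178 CPM sits among the parental ones.

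The axis was dominated by 1 binding protein. Per length, as CPM per kilobase of exon (RPKM), the parental order of levels was IGFBP1 at 1803 ± 423, IGFBP3 at 101 ± 37.7, IGFBP4 at 78.7 ± 11.4, IGF2R at 22.4 ± 3.31, INSR at 6.35 ± 0.398, IGF1R at 5.88 ± 0.380, IRS2 at 5.12 ± 2.33 and IRS1 at 3.89 ± 0.767 (mean ± SD, n = 4). Of these neighbours, IGFBP3 and IGFBP4 overlapped, as did INSR and IGF1R, IGF1R and IRS2, and IRS2 and IRS1. The mean of IRS2 was the higher of the last pair only through parental replicate 1, the 1 library of 4 with IRS2 above IRS1. In the libraries labelled Axin1+ the RPKM order was IGFBP1 at 1006 ± 616, IGFBP4 at 157 ± 26.2, IGFBP3 at 70.8 ± 14.99, IGF2R at 23.6 ± 3.81, INSR at 5.37 ± 0.912, IRS2 at 3.82 ± 1.00, IRS1 at 3.39 ± 0.648 and IGF1R at 3.05 ± 0.794. There INSR overlapped IRS2, IRS2 overlapped IRS1, and IRS1 overlapped IGF1R. Between the orders, IGF1R went from the middle of the receptors and substrates to their lower end, and IGFBP4 stood above IGFBP3. IGFBP2 and IGF2 lay far below all others, at mean RPKM of 0.0118 and 0.0024 in parental and 0.119 and 0.0028 in Axin1+ libraries.

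The ligand IGF2 (ENSG00000167244, GRCh38 chromosome 11, 2129112 to 2149603, minus strand) had almost no counts in its row of the table. It had 1 count in parental replicate 2, 2 counts in Axin1+ replicate 4 and 0 in the other 6 libraries. Both groups are at or under 3 counts, and no fold is given. The overlapping read-through gene INS-IGF2, which shares 20.9% of IGF2's exon bases, had 0 counts, and the antisense gene IGF2-AS, which shares 4.77%, had 1. GENCODE 29 also holds a second IGF2 gene on the same strand (ENSG00000284779), which shares 73.7% of these exon bases and has no row in the table used here. Whether reads shared by the pair went uncounted was not tested, so the low count of this row does not show that IGF2 was unexpressed. IGF1, the other growth factor of the axis, had 1 count in all, and INS had 0.

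Promoter sequences of the members were compared next. The windows from 250 bases before to 50 after the start (RefSeq, GRCh38.p14), which the table held for 8 of the 10 members, with 3 start sites for IGFBP2 and 1 for each other member, were searched on both strands for 7-mers known to bind the Wnt effectors TCF/LEF or the FOXO factors. The TCF/LEF 7-mers were CTTTGAA (found in 4.43% of the 35116 promoters of this length), CTTTGAT (found in 2.62%), CTTTGTA (found in 2.77%) and CTTTGTT (found in 5.2%), and 13.8% of promoters held at least 1 of these. The FOXO elements were GTAAACA (found in 3.42%) and CAAAACA (found in 4.92%), and 8.07% of promoters held at least 1 of the pair. The letters of the 7-mers differ, so no stretch matches more than 1 of them on a strand. None of the 10 windows held a TCF/LEF 7-mer, and 1, that of IRS2, held a FOXO element. IGFBP1 and IGF2 had no window here and were not searched, so nothing is said of their promoters. The 2 members that passed the test and IRS2 are shown 5′ to 3′ on the gene's strand, at chr15:98648289-98648588 (plus strand) for IGF1R, chr17:40443200-40443499 (plus strand) for IGFBP4 and chr13:109786534-109786833 (minus strand) for IRS2. Capitals mark the FOXO match, which reads CAAAACA on the opposite strand at bases -40 to -34 from the start.
IGF1R: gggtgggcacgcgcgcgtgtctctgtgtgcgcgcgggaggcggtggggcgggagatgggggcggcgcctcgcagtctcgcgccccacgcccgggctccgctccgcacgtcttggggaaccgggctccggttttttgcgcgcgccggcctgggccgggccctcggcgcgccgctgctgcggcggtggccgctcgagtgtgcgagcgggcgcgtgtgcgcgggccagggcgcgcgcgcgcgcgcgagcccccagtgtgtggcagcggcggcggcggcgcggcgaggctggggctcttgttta
IGFBP4: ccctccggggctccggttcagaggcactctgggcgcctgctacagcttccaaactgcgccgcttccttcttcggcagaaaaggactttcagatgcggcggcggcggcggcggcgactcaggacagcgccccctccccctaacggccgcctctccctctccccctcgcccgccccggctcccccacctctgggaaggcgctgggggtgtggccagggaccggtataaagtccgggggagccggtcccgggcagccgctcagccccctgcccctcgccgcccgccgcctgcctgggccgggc
IRS2: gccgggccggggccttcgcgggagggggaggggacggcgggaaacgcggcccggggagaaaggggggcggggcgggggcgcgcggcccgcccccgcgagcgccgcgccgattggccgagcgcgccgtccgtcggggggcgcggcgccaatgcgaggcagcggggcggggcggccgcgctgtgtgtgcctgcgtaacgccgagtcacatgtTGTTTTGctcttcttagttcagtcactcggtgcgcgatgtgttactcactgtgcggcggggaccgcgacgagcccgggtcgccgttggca
The GC content is 79.7% for IGF1R, 74% for IGFBP4 and 75.7% for IRS2, against a median of 58.7% over all promoters. The 3 windows of IGFBP2, of which the last starts at base 216659317, inside the gene, were at 55.3%, 70% and 56.7%. The windows of the other members searched lay between 74% and 79.7%. A high GC content was thus shared by members that passed the test and members that did not.

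IGF1R (ENSG00000140443, chromosome 15, 98648539 to 98964530, plus strand), the receptor kinase for both IGFs, was at 74.4, 83.5, 86.7 and 83.5 CPM in parental replicates 1 to 4. It was at 58.5, 34.2, 36.1 and 41.1 CPM in Axin1+ replicates 1 to 4. Each Axin1+ value is below each parental one, and Axin1+ replicate 1, which stands apart on the first axis, is the highest of its group. The means were 82.0 ± 5.30 and 42.5 ± 11.1 CPM (SD, n = 4), a 1.93-fold lower level. The log2 difference was -0.95 (SE 0.17, 95% interval -1.32 to -0.58, edgeR adjusted p = 0.0039). It stayed between -1.18 and -0.86 over the 17 alternatives, with adjusted p up to 0.0177. The 39 tested genes nearest to IGF1R on its chromosome had a median log2 difference of -0.17, with 2 higher and 4 lower.

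INSR (ENSG00000171105, chromosome 19, 7112255 to 7294034, minus strand), the insulin receptor, was at 70.1, 66.5, 68.3 and 60.5 CPM in the parental and 47.0, 68.8, 51.1 and 57.5 CPM in the Axin1+ libraries. The groups overlap through Axin1+ replicate 2. Its log2 difference of -0.24 (SE 0.14, 95% interval -0.54 to 0.06, edgeR adjusted p = 0.236) did not pass the test. IGF2R (ENSG00000197081, chromosome 6, 159969099 to 160113507, plus strand), the scavenging receptor of IGF2, was the most abundant receptor. It was at 320, 389, 439 and 450 CPM in the parental and 401, 341, 441 and 503 CPM in the Axin1+ libraries, which overlap broadly. The log2 difference was 0.08 (SE 0.16, 95% interval -0.27 to 0.43, edgeR adjusted p = 0.767), an interval that leaves out a change of the size seen for IGF1R.

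Within each library, the ratio of IGF1R to the other receptors needs no scaling between libraries. The log2 ratio of IGF1R to IGF2R per length was -1.92 ± 0.14 in parental and -2.97 ± 0.39 in Axin1+ libraries (SD, n = 4), a difference of -1.06 with no overlap (exact two-sided permutation test, p = 0.0286, the smallest that 4 against 4 libraries allow, adjusted p = 0.05 over 7 ratios, which is not under the threshold). The log2 ratio of IGF1R to INSR was -0.11 ± 0.16 and -0.84 ± 0.55 (exact permutation p = 0.0571, adjusted p = 0.08). Here Axin1+ replicate 1, at -0.10, lay within the parental range.

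**Figure D2:**
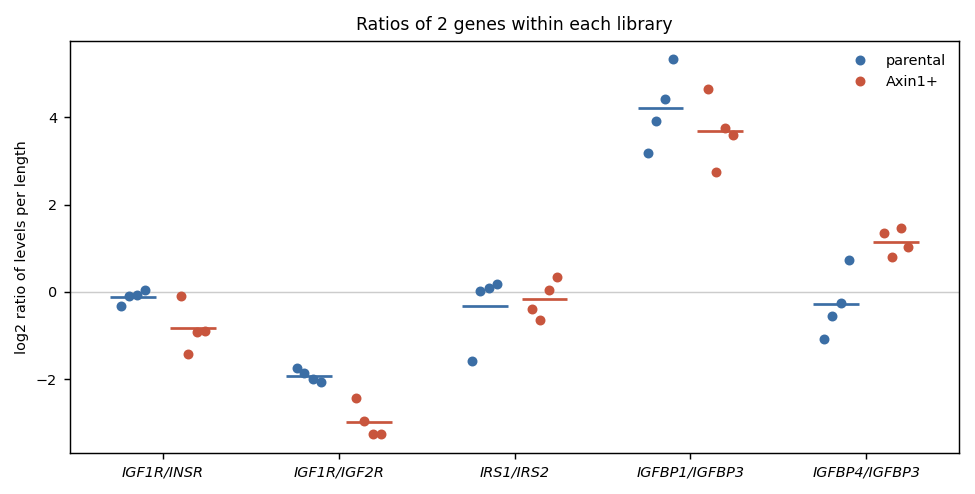
Within-library log2 ratios of member pairs, per kilobase of exon (y axis), in parental and Axin1+ libraries; points are libraries and bars group means. IGF1R/IGF2R and IGFBP4/IGFBP3 do not overlap between the groups, while Axin1+ replicate 1 lies within the parental range for IGF1R/INSR.

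IGFBP4 (ENSG00000141753, chromosome 17, 40443461 to 40457731, plus strand), a binding protein that is inactivated by the protease PAPPA, was at 137, 193, 181 and 182 CPM in the parental libraries. It was at 425, 338, 328 and 288 CPM in the Axin1+ libraries. Here the lowest Axin1+ library is well above the highest parental one, and Axin1+ replicate 1 is the highest of all. The means were 173 ± 25.0 and 345 ± 57.6 CPM (SD, n = 4), a 1.99-fold higher level. The log2 difference was 0.99 (SE 0.16, 95% interval 0.65 to 1.34, edgeR adjusted p = 0.00196), and it ranged from 0.78 to 1.07 over the 17 alternatives, with adjusted p up to 0.0146. The 40 tested genes nearest to IGFBP4 had a median log2 difference of 0.39, with 15 higher and 1 lower, so that IGFBP4 stood 0.60 above its neighbours. PAPPA itself had 1 count in the parental and 4 in the Axin1+ libraries.

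IGFBP1 (ENSG00000146678, chromosome 7, 45888357 to 45893668, plus strand), the insulin-repressed binding protein, was at 1942, 3227, 3457 and 3293 CPM in parental replicates 1 to 4. It was at 3178, 991, 1207 and 1274 CPM in Axin1+ replicates 1 to 4. The 3 Axin1+ libraries other than replicate 1 are below every parental library, while replicate 1 is level with the parental ones. Parental replicate 1 is the lowest of its group. IGFBP1 ranked 27, 7, 7 and 6 by RPKM among 19775 protein-coding genes in the parental libraries and 4, 47, 29 and 23 in the Axin1+ libraries. The means of 2980 ± 699 and 1662 ± 1018 CPM (SD, n = 4) gave a log2 difference of -0.84 (SE 0.35, 95% interval -1.61 to -0.08), which did not pass the test (edgeR adjusted p = 0.114). The result rests on these libraries. The log2 difference was -1.37 (edgeR adjusted p = 0.0023) without Axin1+ replicate 1 and -1.004 (adjusted p = 0.043) without parental replicate 1. Without both, a setting chosen after seeing the data, it was -1.52 (adjusted p = 5.4e-06). These libraries hold the highest IGFBP1 value of the Axin1+ group and the lowest of the parental group. Leaving them out therefore had to widen the difference, and the p-values without them are no support for a change. IGFBP1 also passed with no expression filter (edgeR adjusted p = 0.0105) and in the DESeq2 Wald test (adjusted p = 0.046). Without the filter its log2 difference was no larger, at -0.82, but the SE was 0.23 against 0.35 with the filter. Over the 17 alternatives the adjusted p ran from 5.4e-06, without both of those libraries, to 0.264.

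IGFBP3 (ENSG00000146674, chromosome 7, 45912245 to 45921874, minus strand), the main carrier of IGFs in serum and a chromosomal neighbour of IGFBP1, was at 595, 588, 446 and 227 CPM in the parental and 347, 407, 248 and 293 CPM in the Axin1+ libraries. The groups overlap because parental replicate 4 is the lowest of all 8. Its log2 difference of -0.52 (SE 0.27, 95% interval -1.12 to 0.08, edgeR adjusted p = 0.209) did not pass the test. Without parental replicate 4 it was -0.75 (adjusted p = 0.027), but leaving out that lowest library had to widen the difference. Over the 17 alternatives the adjusted p ran from 0.027 to 0.424. The within-library log2 ratio of IGFBP4 to IGFBP3 per length was -0.28 ± 0.76 in the parental and 1.16 ± 0.30 in the Axin1+ libraries. That difference of 1.44 had no overlap (exact permutation p = 0.0286, adjusted p = 0.05). The log2 ratio of IGFBP1 to IGFBP3 was 4.21 and 3.69 (exact permutation p = 0.4, adjusted p = 0.467).

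IGFBP2 (ENSG00000115457, chromosome 2, 216632828 to 216664436, plus strand), a binding protein often raised in tumours, had 0, 2, 1 and 0 counts in the parental and 11, 12, 6 and 15 in the Axin1+ libraries. All 4 Axin1+ libraries hold more counts than any parental one, but at a level too low for the expression filter. The 3 counts against 44 gave a ratio of 8.74 relative to library size (95% interval 2.80 to 44.0, exact, counting error only). Without the filter, the edgeR log2 difference was 3.10 (adjusted p = 0.0085). The 40 tested genes around IGFBP2 had a median log2 difference of -0.33, with 3 higher and 11 lower. Its within-library log2 ratios moved with these low counts, from -12.2 to -10.4 against IGFBP4 and with a difference of -3.76 for IGFBP1 against IGFBP2 (exact permutation p = 0.0286, adjusted p = 0.05 for each). These values depend on the 0.5 counts added to libraries at 0. With 2 counts added, the IGFBP2/IGFBP4 difference fell from 1.80 to 0.57 (exact permutation, adjusted p = 0.4) and that of IGFBP1/IGFBP2 was -2.53 (adjusted p = 0.0667).

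Summed per length, the mRNA of IGFBP1 to IGFBP7 came to 1367, 2169, 2271 and 2125 RPKM in the parental libraries. It came to 2192, 843, 934 and 966 RPKM in the Axin1+ libraries, so that replicate 1 again sits with the parental values. IGFBP1 made up 85.9%, 90.02%, 92.1% and 93.8% of the parental pool and 87.7%, 71.1%, 78.2% and 79.8% of the Axin1+ pool. The IGFBP4 share was 4.54%, 4.04%, 3.62% and 3.90% in the parental and 8.81%, 18.2%, 16.0% and 13.5% in the Axin1+ libraries, higher in all 4. The IGFBP3 share overlapped, with 2.34% to 9.52% in parental and 3.46% to 10.6% in Axin1+ libraries. These shares are descriptions with no test.

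**Figure D3:**
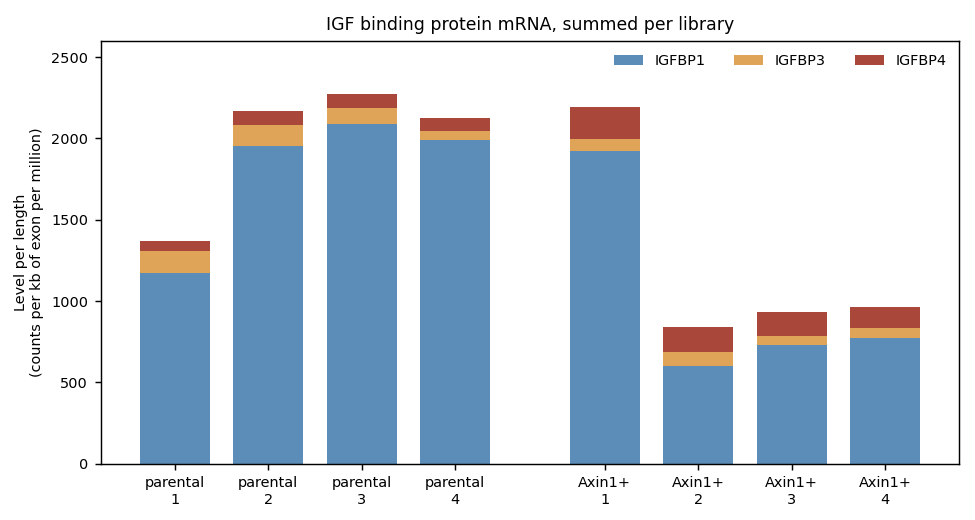
RPKM of IGFBP1, IGFBP3 and IGFBP4 in each library (stacked bars from 0, coloured by gene). IGFBP2, IGFBP5, IGFBP6 and IGFBP7 are not drawn, each at most 0.0247% of the sum in any library. IGFBP1 fills most of each bar, and Axin1+ replicate 1 at 2192 RPKM is as tall as the parental bars, while the other Axin1+ libraries stand at 843 to 966 RPKM.

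The receptor substrates did not pass the test. IRS1 (ENSG00000169047, chromosome 2, 226731317 to 226799759, minus strand), a docking protein that couples the receptors to PI3K, was at 28.6, 38.0, 46.6 and 41.8 CPM in the parental and 39.5, 25.8, 31.2 and 38.6 CPM in the Axin1+ libraries. The groups overlap, and the log2 difference was -0.20 (SE 0.18, 95% interval -0.60 to 0.21, edgeR adjusted p = 0.490). IRS2 (ENSG00000185950, chromosome 13, 109752698 to 109786568, minus strand), its paralogue and itself a FOXO target in liver, was at 69.9, 30.8, 35.8 and 30.3 CPM in the parental and 42.0, 32.8, 24.8 and 24.8 CPM in the Axin1+ libraries. Parental replicate 1 is far above the rest. The log2 difference of -0.42 (SE 0.28, 95% interval -1.04 to 0.20, edgeR adjusted p = 0.321) became -0.06 without that library, with adjusted p between 0.167 and 0.862 over the 17 alternatives. The log2 ratio of IRS1 to IRS2 differed by 0.17 between the groups (exact permutation p = 0.8, adjusted p = 0.8).

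**Figure D4:**
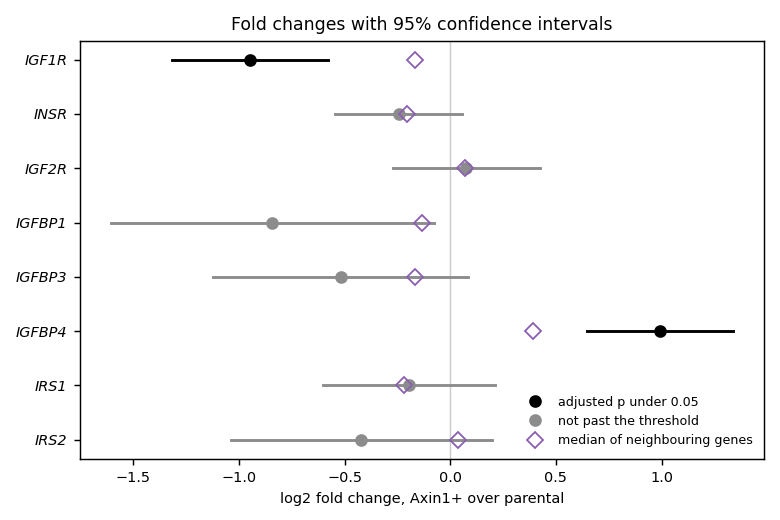
Log2 difference of Axin1+ over parental libraries (x axis) with 95% intervals for the 8 tested members. Only the intervals of IGFBP4, IGF1R and IGFBP1 leave out 0, and IGFBP1 did not pass the test after adjustment.

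The other genes of the pathway were taken from 4 lists, described by their counts beside the 19.2% of all genes that passed. Of 20 further ligands, binding proteins and proteases, 7 were tested and 1 was called higher, with a median log2 difference of 0.17. That gene was IGFBPL1, an IGFBP-related secreted protein, with 1, 0, 1 and 1 counts in the parental and 107, 29, 45 and 90 in the Axin1+ libraries. The pooled counts gave a 53.8-fold ratio (95% interval 18.2 to 263, counting error only), and the edgeR log2 difference was 5.51 (adjusted p = 8.8e-05). IGFBPL1 passed the expression filter only through the Axin1+ libraries, so this p and its count among the tested genes are no support for a change, and its counts are given as a description. The genes around IGFBPL1 on its chromosome were not examined. HTRA1, a protease that cleaves IGFBPs, had means of 5.203 and 9.05 CPM (adjusted p = 0.097), and STC2, an inhibitor of PAPPA, had 187 and 227 CPM (adjusted p = 0.284), both in edgeR. Of the list, 9 genes had at most 3 counts in every library.

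Of 10 regulators of IGF2 RNA and genes of its locus, 8 were tested, 2 fell and 0 rose, with a median of -0.17. H19, the imprinted noncoding RNA next to IGF2, was at 53.0, 125, 42.8 and 11.7 CPM in the parental and 4.30, 12.6, 3.30 and 2.54 CPM in the Axin1+ libraries. The groups overlap where parental replicate 4 meets Axin1+ replicate 2, and the log2 difference was -3.42 (SE 0.69, edgeR adjusted p = 0.0071). IGF2BP2, a protein that binds IGF2 mRNA, fell from 245 ± 22.8 to 164 ± 5.79 CPM (log2 difference -0.58, SE 0.11, edgeR adjusted p = 0.0062). The size of the H19 difference moved with single libraries, to -2.70 without parental replicate 2 and -4.10 without Axin1+ replicate 2. PLAGL1, an imprinted transcription factor, had means of 12.9 and 6.73 CPM (edgeR adjusted p = 0.317). Its level in Axin1+ replicate 1 was 18.7 CPM against 1.98 to 3.32 CPM in the other 3, and without that library its log2 difference was -2.20 (adjusted p = 0.0007, with a range of 1.4e-05 to 0.546 over the 17 alternatives). Leaving out that highest library had to widen the difference.

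Of 40 genes from the receptor-proximal steps to AKT, mTOR and FOXO, 36 were tested, 5 rose and 2 fell, which is 19.4% with a median of 0.06. DEPTOR, an inhibitor of mTOR, rose from 7.91 ± 3.06 to 22.6 ± 6.09 CPM (log2 difference 1.51, SE 0.30, edgeR adjusted p = 0.0063). FOXO1, the main FOXO factor of hepatocytes, was at 41.5, 29.8, 30.6 and 41.4 CPM in the parental and 22.5, 8.92, 8.87 and 10.2 CPM in the Axin1+ libraries. The groups are separate, with Axin1+ replicate 1 nearest to the parental libraries (log2 difference -1.49, SE 0.30, edgeR adjusted p = 0.0068). The related FOXO4 rose from a mean of 16.1 to 26.8 CPM (edgeR adjusted p = 0.016). The remaining called genes, named after their values were seen, were FOXO3 (log2 difference 0.50), the kinases GSK3A (0.61) and RPS6KB1 (0.56), and GRB14 (-0.56), an adaptor that inhibits the insulin receptor. Their calls were marginal. That of FOXO4 was lost without parental replicate 2 or Axin1+ replicate 3 or 4, that of GSK3A without parental replicate 2 or 3 or Axin1+ replicate 3, and that of FOXO3 without parental replicate 3 or 4 or Axin1+ replicate 2, 3 or 4. The call of GRB14 was lost without parental replicate 2 or 3 or Axin1+ replicate 2, 3 or 4. It was also lost with plain library totals, without the expression filter, in limma-voom and with the replicate number as a block. That of RPS6KB1 was lost without any single one of the 8 libraries and with the replicate number as a block.

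Of 17 genes that FOXO factors or insulin are known to control, 16 were tested. Of these, 4 rose and 3 fell, which is 43.8% with a median of 0.40. The list was chosen with earlier results of these data known, so this share is a description. TXNIP, an inhibitor of thioredoxin and glucose uptake, rose from a mean of 3.04 to 11.4 CPM (log2 difference 1.92, SE 0.24, edgeR adjusted p = 0.0006). CCNG2, an atypical cyclin, rose from 3.51 to 7.79 CPM (log2 difference 1.15, SE 0.22, edgeR adjusted p = 0.005), and PDK4, which restrains pyruvate oxidation, from 3.02 to 8.31 CPM (1.46, SE 0.34, adjusted p = 0.0147). The other called genes, named after their values were seen, were the repressor BCL6 (log2 difference 0.53), the pseudokinase TRIB3 (-0.37), the transcription factor KLF15 (-0.93) and G6PC, the last enzyme of glucose production. G6PC was at 182, 142, 161 and 236 CPM in the parental and 140, 29.5, 28.8 and 24.8 CPM in the Axin1+ libraries, so Axin1+ replicate 1 again sits near the parental values. Its log2 difference was -1.69 (SE 0.51, edgeR adjusted p = 0.039) and -2.70 without Axin1+ replicate 1. The call of G6PC was lost without parental replicate 2, 3 or 4 or Axin1+ replicate 2, 3 or 4, with adjusted p up to 0.108. That of PDK4 was lost without parental replicate 2 or Axin1+ replicate 4, and that of BCL6 without parental replicate 2 or 3 or Axin1+ replicate 4. The call of KLF15 was lost without any single library other than parental replicate 2, with its log2 difference at -0.55 without parental replicate 1. That of TRIB3 was lost without any single library other than parental replicate 1. With plain library totals the calls of G6PC (edgeR adjusted p = 0.056), TRIB3 (0.119) and KLF15 (0.060) were also lost. That of TRIB3 was lost as well without the expression filter (edgeR adjusted p = 0.167) and with the replicate number as a block (0.095). That of KLF15 was lost in limma-voom (adjusted p = 0.066).

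**Figure D5:**
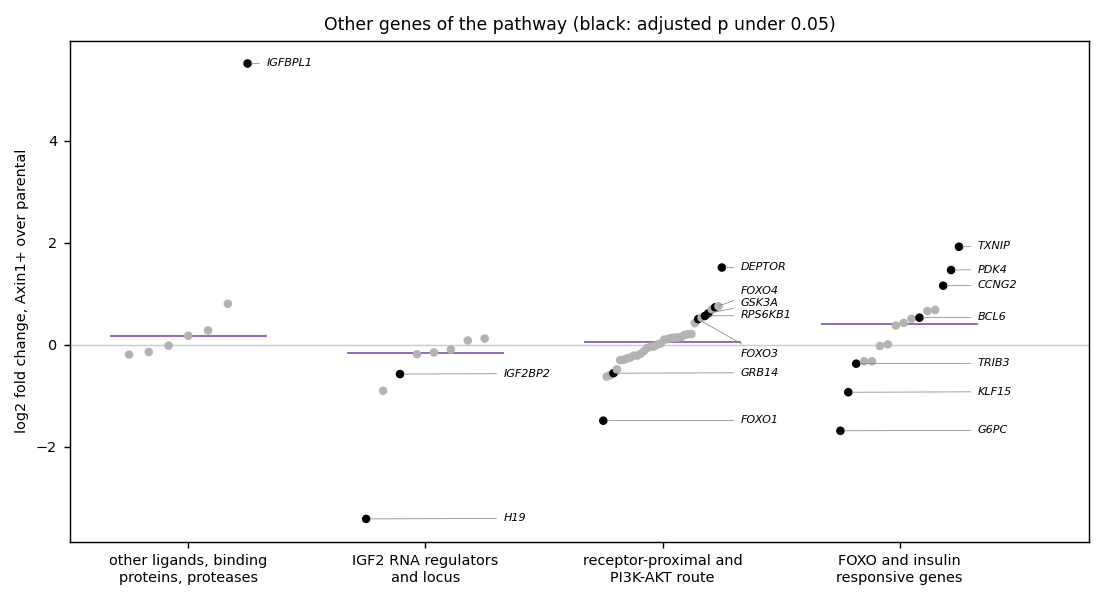
Log2 difference of Axin1+ over parental libraries (y axis) for the tested genes of the 4 pathway lists (x axis), each point a gene, black where the edgeR adjusted p is under 0.05, with a line at the list's median. The medians lie between -0.17 and 0.40, with IGFBPL1 and H19 farthest from 0.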

How the data were processed

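Messenger RNA was sequenced from 8 samples, grouped by their titles. The authors deposited 1 table of gene counts that were not normalized, as its whole numbers show. Per the submitters' processing notes, bcl2fastq, fastp 0.23.1, STAR 2.7.4 and GRCh38 were used; the counting program, annotation and strand setting are not given in the sources used here, so which gene of an overlapping pair received a read cannot be told. Of 58206 identifiers, 57943 were found in GENCODE 29, the source of coordinates and exon lengths.

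The fit used edgeR 4.0.16 in R 4.3.3 (filterByExpr with minimum count 10 and total 15, TMM, quasi-likelihood test without covariates, Benjamini-Hochberg adjustment over 14289 genes, threshold 0.05). The standard error is the absolute log2 difference over the square root of F. CPM use TMM-scaled totals, and RPKM divide these by the union of exons. Ratios add 0.5 counts, and their permutation tests are exact. Between 99.75% and 99.85% of counts fell in tested genes. Intervals cover counting error only where so stated. Alternatives were DESeq2 1.42.0 size factors and Wald test, upper-quartile scaling, total counts only, no filter, a mean of at least 1 CPM, limma-voom (limma 3.58.1), a replicate block, leaving out each library and, chosen after seeing the data, leaving out parental replicate 1 and Axin1+ replicate 1 together.

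The members and lists were chosen with earlier results of these data known. Named genes are the members, AXIN1, the 3 of each list with the smallest p, list genes at a member's locus, and the 3 genes nearest in profile to the called member with the largest absolute log2 difference. Outside this rule, IGF1, PAPPA and cell type markers are named as background, and FOXO3, GSK3A, RPS6KB1, GRB14, BCL6, TRIB3, KLF15 and G6PC were named after their values were seen. The ratio of IGF2 to IGF2R was left out for low counts, and protein sequences were not analysed here. The tests were also run on simulated counts, drawn with the spread fitted to these same libraries. No simulated library stood apart, so that run cannot show how the tests behave with libraries such as parental replicate 1 and Axin1+ replicate 1.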

Additional observations from a re-analysis of the deposited data

Results flagged for a closer look

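Each group of 4 values of a member, of AXIN1 and of a ratio was searched for 1 library far from the other 3. The mark was a gap over range above Dixon's 95% critical value of 0.829, and 5 of 33 groups held one. That value is set to mark about 1 in 20 normal groups. Ratios reuse the values of members, so the groups are not independent, and the count of 5 is a description and not a test. IGFBP1 was at 1942 CPM in parental replicate 1 against 3227 to 3457 CPM in the other parental libraries. IGFBP1 was at 3178 CPM in Axin1+ replicate 1 against 991 to 1274 CPM in the other Axin1+ libraries. IRS2 was at 69.9 CPM in parental replicate 1 against 30.3 to 35.8 CPM in the other 3. The log2 ratio of IRS1 to IRS2, which contains that IRS2 value, was -1.58 in parental replicate 1 against 0.01 to 0.17 in the others. AXIN1 was at 37.7 CPM in Axin1+ replicate 4 against 47.6 to 48.2 CPM in the others. Parental replicate 1 and Axin1+ replicate 1 account for 4 of the 5, and both also stood apart in the principal components of all genes.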

How the results depend on the processing

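The calls of IGF1R and IGFBP4 held, in the same direction, under all 17 alternatives. Without an expression filter 4 members passed, 2 higher and 2 lower, since IGFBP2 was then tested and IGFBP1 passed. Over all genes, 3196 of 30224 passed in that setting, 1846 higher and 1350 lower. The DESeq2 Wald test gave 2 lower members (IGFBP1 at an adjusted p of 0.046), beside 1729 lower genes of 14289. Leaving out both libraries that stand apart also gave 2 lower members, beside 2243 lower genes of 14332. Leaving out 1 library gave 2 to 3 members in all, 1 higher and 1 to 2 lower; the added member was IGFBP1 without parental replicate 1 or Axin1+ replicate 1 and IGFBP3 without parental replicate 4. The count over all genes ranged from 1394 to 3523 (797 to 1918 higher, 597 to 1605 lower), with 1394 without Axin1+ replicate 4, 1508 without parental replicate 2 and 1531 without Axin1+ replicate 3, against 2738. Without both libraries that stand apart it was 4623, with 2380 higher and 2243 lower. The log2 difference of IGF2R turned to -0.016 without parental replicate 1 and -0.017 without Axin1+ replicate 4, with 0.17 as the highest without 1 library, and the IRS1/IRS2 difference to -0.25 without parental replicate 1, with 0.34 as the highest; the cause was not tested.

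With the replicate number as a block, 2 members and 2033 genes passed. Same-numbered libraries did not deviate together, with correlations of -0.063, 0.0067, -0.032 and 0.227, so the numbers were not taken to pair the libraries, and parental replicate 1 correlated best with Axin1+ replicate 2 (0.448). Depth limits IGF2 and IGFBP2, whose counts lie near 0.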

Other observations

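With all 8 libraries, IGFBP4 had a log2 difference of 0.99 and IGF1R one of -0.95, a gap well under their standard errors, and IGF1R had the larger size without Axin1+ replicate 1 (-1.14 against 0.88), without parental replicate 1 (-0.99 against 0.89) and without both (-1.18 against 0.78). IGFBP4 was taken for a search of like profiles as the larger with all 8. The genes whose mean-centred log2 CPM profile over the 8 libraries was nearest to that of IGFBP4, among 13558 genes compared, were EXOSC3, a subunit of the RNA exosome, with a root mean square difference of 0.114, USP43, a deubiquitinase, with 0.127, and POLR1E, a subunit of RNA polymerase I, with 0.133. The median over all genes compared was 0.60. This likeness rests on 2 groups of 4 libraries and is a description. No shared function is read from it, and whether genes of like profile lie in a shared chromosomal region was not tested.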
